A study of Mus musculus with 36 samples.

Results

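The cell cycle genes described here are 10 transcripts of cyclins and cyclin-dependent kinases in mouse dendritic cells (DCs) that carry or lack thrombomodulin (TM) on their surface. They are the D type cyclins Ccnd1, Ccnd2 and Ccnd3, the E type cyclins Ccne1 and Ccne2, the A type cyclin Ccna2, the B type cyclin Ccnb2, cyclin F (Ccnf) and the kinases Cdk1 and Cdk2. They were taken by symbol from the 19938 gene symbols of the array, each with the transcript cluster (the set of probes for 1 transcript) of highest mean over the 36 arrays, and each of the 10 had 1 such cluster.

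All groups shared the same start: Balb/c bone marrow was grown in GM-CSF (granulocyte-macrophage colony-stimulating factor, 100 ng/ml), with RNA prepared on day 6. Treated cultures received soluble TM (sTM), a recombinant form of the extracellular part of human thrombomodulin, at 200 nM from day 4, and untreated cultures received none. TM+ and TM- DCs were separated with a rat antibody against TM and magnetic beads. Sorted DCs of untreated cultures gave 4 arrays each of TM+ and TM- DCs (experiments 3 and 4), sorted DCs of sTM-treated cultures gave 6 arrays each (experiments 2, 3 and 4), and unsorted DCs gave 8 untreated and 8 sTM-treated arrays (experiments 1, 2 and 3). Replicate arrays are titled as biological replicates, but the sources used here do not say if these came from separate mice or cultures. P-values therefore reflect only how far these arrays spread, and their number limits the precision. The paper describes independent experiments, whereas the tests count the arrays within them. The tests hold no term for a difference between fractions that varies by experiment. Where it varies, their p-values can be too small.

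Cyclins are the regulatory subunits that switch on cyclin-dependent kinases, and most of them are made and destroyed in turn as a cell passes through the division cycle. D type cyclins rise when growth factors act on a cell and, with Cdk4 or Cdk6, begin to inactivate the retinoblastoma protein. E type cyclins then drive Cdk2 at the entry into DNA synthesis, A type cyclins serve Cdk2 and Cdk1 through DNA synthesis and after it, and B type cyclins drive Cdk1 into mitosis. In GM-CSF cultures of bone marrow, DCs arise from dividing precursors, and fully differentiated DCs divide little.

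Upstream sequences were available for 6 of the 10 members in RefSeq (mouse build GRCm38.p6), and 4 of them are shown. The first 3 hold both a CCAAT box and a cell cycle homology region (CHR), which many genes of mitosis carry near their start. The Cdk2 sequence, with a CCAAT box and E2F letters but no CHR, is set beside them. Each line gives the 250 bases before the annotated start, in the direction of the gene, all on the minus strand of the chromosome, at chr9:70421555-70421804 for Ccnb2, chr10:69352913-69353162 for Cdk1, chr17:24251410-24251659 for Ccnf and chr10:128705052-128705301 for Cdk2. Capitals mark CCAAT boxes (which read ATTGG when on the opposite strand), the CHR letters and, in Cdk2, the E2F letters, which there lie on the opposite strand.
Ccnb2: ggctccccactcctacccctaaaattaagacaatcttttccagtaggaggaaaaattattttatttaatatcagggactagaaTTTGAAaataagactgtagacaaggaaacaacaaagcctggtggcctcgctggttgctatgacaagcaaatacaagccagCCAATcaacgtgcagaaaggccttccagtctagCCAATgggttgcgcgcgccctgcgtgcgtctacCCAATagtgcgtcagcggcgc
Cdk1: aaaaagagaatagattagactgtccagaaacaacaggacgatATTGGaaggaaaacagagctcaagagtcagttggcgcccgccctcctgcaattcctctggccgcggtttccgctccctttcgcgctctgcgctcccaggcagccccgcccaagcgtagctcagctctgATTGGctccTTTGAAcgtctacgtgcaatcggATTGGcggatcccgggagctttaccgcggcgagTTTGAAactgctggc
Ccnf: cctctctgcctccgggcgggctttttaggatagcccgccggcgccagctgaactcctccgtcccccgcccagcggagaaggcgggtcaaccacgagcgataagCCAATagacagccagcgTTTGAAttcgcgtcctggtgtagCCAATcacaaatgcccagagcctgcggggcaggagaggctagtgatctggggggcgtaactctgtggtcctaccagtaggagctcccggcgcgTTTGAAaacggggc
Cdk2: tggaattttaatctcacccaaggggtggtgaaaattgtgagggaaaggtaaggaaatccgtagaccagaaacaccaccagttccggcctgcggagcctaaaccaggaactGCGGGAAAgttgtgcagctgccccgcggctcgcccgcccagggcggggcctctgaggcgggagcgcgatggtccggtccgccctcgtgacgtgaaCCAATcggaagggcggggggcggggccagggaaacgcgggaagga

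Both strands of 300 bases (250 before and 50 after each start) were searched for CCAAT, for the CHR letters TTTGAA and their variant with the letters TTCGAA, and for the E2F letters TTTGGCGC, TTTCCCGC, TTCCCGCC or TTTGGCGG. Of 32851 mouse promoters of this length, 37.4% held CCAAT, 19.2% a CHR, 3.69% E2F letters and 7.52% both CCAAT and a CHR. The 6 members had 7 promoters, since Ccnd3 had a second start, and of these 5 held CCAAT, 3 a CHR and 1 the E2F letters. In Ccnb2 the CCAAT boxes began at positions -87, -54 and -21 from the start. Its CHR letters were at -167, before all of these boxes, and at 5, after the start and so outside the bases shown. Ccne1, and the first start of Ccnd3, held none of the letters. A match is a description of the sequence and not evidence of binding.

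Between TM+ and TM- DCs, 9 of the 10 members were higher in TM+ DCs and 1, Ccnd2, was lower (limma, Benjamini-Hochberg adjusted p under 0.05 over all genes, mean of the differences in untreated and sTM-treated cultures). Over all 19938 genes 18.6% were called higher and 18.7% lower. The members were chosen with earlier results of these data known, so setting them beside all genes is a description and not a test. The median difference of the members was 1.25 on the log2 scale, against -0.08 for all genes. Gene positions below are those of RefSeq on GRCm38.p6. The 2 largest differences were those of the A and B type cyclins, and the D type cyclins differed among themselves in size and direction. Because each array holds RNA of many cells, fewer cells with a transcript and less of it per cell cannot be told apart.

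**Figure D1:**
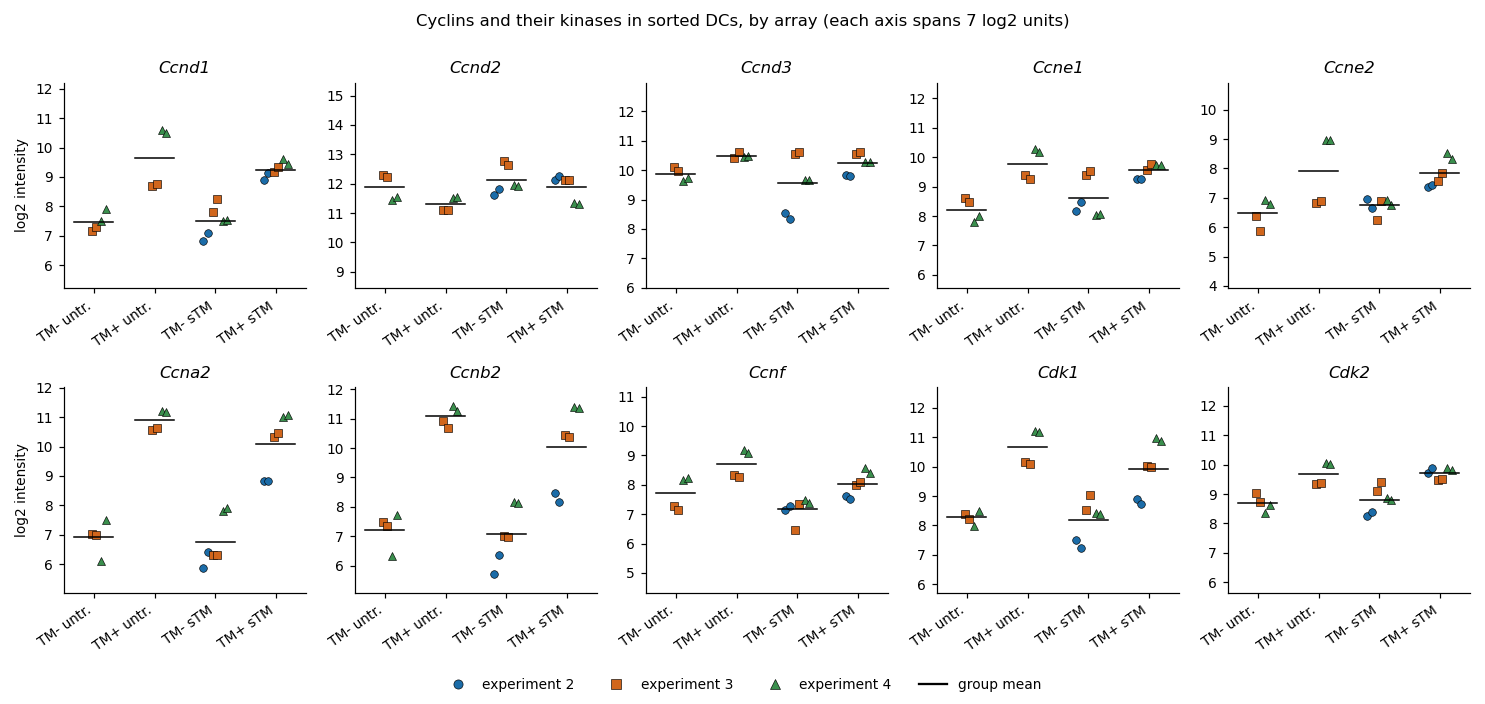
Log2 intensity (vertical axis, each spanning the same range) of the 10 members in the 20 arrays of sorted DCs, by group; points are arrays, marked by experiment, and bars are group means. For Ccna2 and Ccnd1 all 10 TM+ arrays lie above all 10 TM- arrays, whereas the fractions overlap for Ccnd2.

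Cyclin D1 (Ccnd1, chr7:144929931-144939831), a partner of Cdk4 and Cdk6, was at log2 intensities of 8.69, 8.75, 10.59 and 10.49 in the 4 TM+ arrays of untreated cultures and at 7.17, 7.29, 7.49 and 7.90 in the TM- arrays. In sTM-treated cultures it was at 8.88 to 9.60 (median 9.24, 6 arrays) in TM+ DCs and at 6.83 to 8.25 (median 7.51, 6 arrays) in TM- DCs. Every TM+ array was above every TM- array. Such complete separation was found for 2 of the members, Ccnd1 and Ccna2, and for 2.2% of all genes in this direction. Ccnd1 was 3.88-fold higher in TM+ DCs (log2 difference 1.96, SE 0.20, adjusted p = 1.19e-07).

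Cyclin D2 (Ccnd2, chr6:127125162-127152188) is a D type cyclin that many blood cells use. It was at 11.11, 11.09, 11.52 and 11.55 in the TM+ arrays of untreated cultures and at 12.28, 12.22, 11.44 and 11.56 in the TM- arrays. In sTM-treated cultures it was at 11.32 to 12.26 (median 12.13) in TM+ and at 11.63 to 12.78 (median 11.93) in TM- DCs. The fractions overlapped in both kinds of culture. The difference was -0.40 (SE 0.15, adjusted p = 0.0399), and its direction went with the experiment. TM+ DCs were higher by 0.47 in experiment 2 (sTM), and lower in experiment 3 with a difference of -1.15 in untreated and -0.59 in sTM-treated cultures. In experiment 4 the difference was 0.03 in untreated and -0.60 in sTM-treated cultures. Without experiment 3 the difference was -0.02 (adjusted p = 0.925), and in 12 of the 20 fits without 1 array the adjusted p was above the threshold, up to 0.0996. Those 12 were all arrays of experiments 3 and 4 except a TM+ array of experiment 3 in sTM-treated cultures and 3 arrays of experiment 4 in untreated cultures.

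Cyclin D3 (Ccnd3, chr17:47505051-47599689), the other D type cyclin of blood cells, was 1.56-fold higher in TM+ DCs (log2 difference 0.64, SE 0.16, adjusted p = 0.00277). Its TM+ arrays lay between 9.80 and 10.62 and its TM- arrays between 8.34 and 10.61, so that the fractions overlapped. The TM+ array was the higher one in 10 of 10 pairs (a TM+ and a TM- array matched by experiment, treatment and number), but by 0.005 on average in the sTM-treated cultures of experiment 3 and by 1.38 in those of experiment 2. Each combination of experiment and treatment gave 2 of the pairs, so they are not 10 independent ones. The share of all genes higher in 10 of 10 pairs was not counted, here or for the members below. Without experiment 4 its adjusted p was 0.16.

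Both E type cyclins, the activators of Cdk2 at the start of DNA synthesis, were higher in TM+ DCs by a similar amount. Ccne1 (chr7:38097984-38107490) was 2.37-fold higher (log2 difference 1.25, SE 0.18, adjusted p = 1.71e-05) and Ccne2 (chr4:11190433-11204779) 2.39-fold higher (log2 difference 1.26, SE 0.19, adjusted p = 2.21e-05). In each the TM+ array was the higher one in 10 of 10 pairs, with differences of 0.17 to 2.50 for Ccne1 and of 0.38 to 2.18 for Ccne2. The smallest mean difference of Ccne1 was in sTM-treated cultures of experiment 3 (0.21) and the largest in untreated cultures of experiment 4 (2.33). For Ccne2 they were 0.57 in experiment 2 and 2.11 in untreated cultures of experiment 4.

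Cyclin A2 (Ccna2, chr3:36564865-36573038), which serves Cdk2 in DNA synthesis and Cdk1 before mitosis, was at 10.56, 10.62, 11.20 and 11.18 in TM+ arrays of untreated cultures and at 7.03, 6.99, 6.12 and 7.51 in TM- arrays. In sTM-treated cultures it was at 8.83 to 11.07 (median 10.40) in TM+ and at 5.87 to 7.90 (median 6.36) in TM- DCs. No TM- array reached the lowest TM+ array. Ccna2 was 12.6-fold higher in TM+ DCs (log2 difference 3.65, SE 0.23, adjusted p = 2.23e-10), and the difference ranged from 2.42 to 5.08 over the 10 pairs.

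Cyclin B2 (Ccnb2, chr9:70407689-70421554), a partner of Cdk1 in mitosis, was at 10.92, 10.69, 11.43 and 11.26 in TM+ arrays of untreated cultures and at 7.49, 7.34, 6.33 and 7.72 in TM- arrays. In sTM-treated cultures it was at 8.17 to 11.39 (median 10.41) in TM+ and at 5.73 to 8.18 (median 6.99) in TM- DCs. The lowest TM+ array, of experiment 2, fell just below the highest TM- array, of experiment 4, whereas within each experiment the fractions were apart. The share of all genes apart within each experiment was not counted. The log2 difference was 3.41 (SE 0.26, adjusted p = 3.25e-09).

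Cyclin F (Ccnf, chr17:24223230-24251409) binds no cyclin-dependent kinase and instead directs a ubiquitin ligase to proteins late in the cycle. It was at 8.35, 8.27, 9.19 and 9.08 in TM+ arrays of untreated cultures and at 7.28, 7.15, 8.18 and 8.25 in TM- arrays. In sTM-treated cultures it was at 7.51 to 8.59 (median 8.05) in TM+ and at 6.47 to 7.48 (median 7.31) in TM- DCs. The fractions were apart within each treatment and overlapped between treatments. The share of all genes apart within each treatment was not counted. Ccnf was 1.91-fold higher in TM+ DCs (log2 difference 0.93, SE 0.13, adjusted p = 5.62e-06).

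Cdk1 (chr10:69335146-69352912), the kinase of mitosis, was at 10.16, 10.11, 11.20 and 11.19 in TM+ arrays of untreated cultures and at 8.40, 8.21, 7.99 and 8.49 in TM- arrays. In sTM-treated cultures it was at 8.74 to 10.98 (median 10.01) in TM+ and at 7.23 to 9.03 (median 8.39) in TM- DCs. The overlap came from the TM+ arrays of experiment 2 and a single sTM-treated TM- array of experiment 3, at 9.03. Cdk1 was 4.18-fold higher in TM+ DCs (log2 difference 2.06, SE 0.19, adjusted p = 5.01e-08). Cdk2 (chr10:128697938-128705051), the kinase of E and A type cyclins, was 1.94-fold higher (log2 difference 0.95, SE 0.14, adjusted p = 1.06e-05), with TM+ arrays at 9.34 to 10.05 and TM- arrays at 8.24 to 9.43. The TM+ array was the higher one in 10 of 10 pairs for both kinases.

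**Figure D2:**
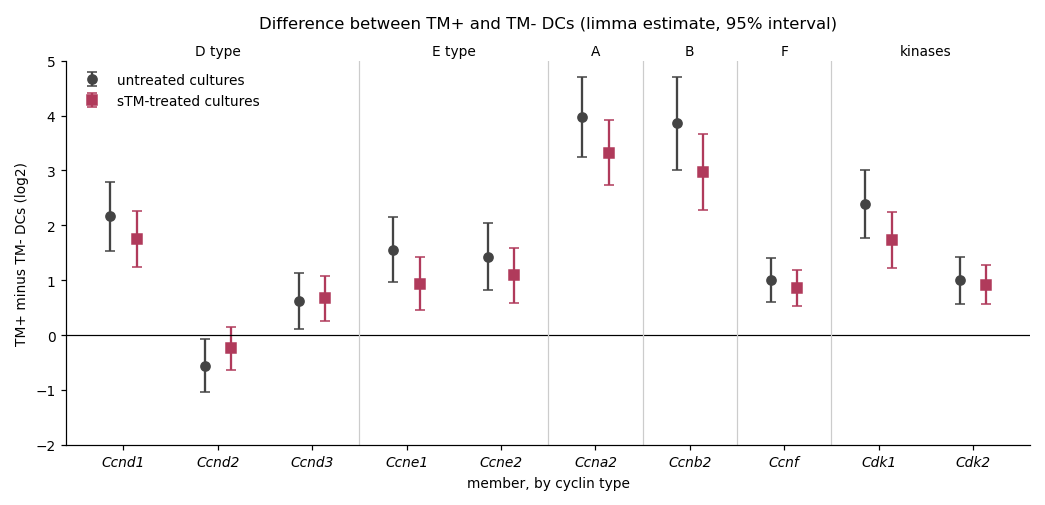
Difference between TM+ and TM- DCs (vertical axis, log2) for each member (horizontal axis, by cyclin type) in untreated and sTM-treated cultures; points are limma estimates and bars 95% intervals. The differences of Ccna2 and Ccnb2 are 3.98 and 3.86 in untreated cultures, and those of Ccnd2 lie below 0.

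Set beside each other within the same pair of arrays, the differences followed the cyclin types only in part. The difference of Ccna2 was larger than that of each D and E type cyclin in 10 of 10 pairs. That of Ccnb2 was larger in 10 of 10 pairs than those of Ccnd2, Ccnd3, Ccne1 and Ccne2, and in 9 of 10 pairs than that of Ccnd1. Among the D type cyclins, the difference of Ccnd1 exceeded those of Ccnd2 and Ccnd3 in 10 of 10 pairs, and it also exceeded those of both E type cyclins in 10 of 10. Cyclin F stood with the E type rather than with the A and B type cyclins, its difference being larger than that of Ccne1 in 4 pairs and than that of Ccne2 in 4 pairs. Between the kinases, the difference of Cdk1 was the larger one in 8 of 10 pairs. Ranked among the 10 members within each pair, Ccna2 was at 1 or 2, Ccnb2 was between 1 and 3, Cdk1 was between 3 and 5, and Ccnd2 was between 8 and 10. The labels do not say if TM+ and TM- arrays of the same number came from the same culture. Deviations of the matched arrays correlated between -0.249 and 0.306, which cannot decide it with 2 arrays per group and experiment. These are differences and not levels, and the members share the same arrays, so no test was made of them. The members lay at different intensities, with TM- arrays at 5.86 to 6.98 for Ccne2 and at 11.44 to 12.78 for Ccnd2. The array medians were 6.88 to 7.15. Whether differences were compressed at low or high intensity was not tested, and this could alter the order.

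**Figure D3:**
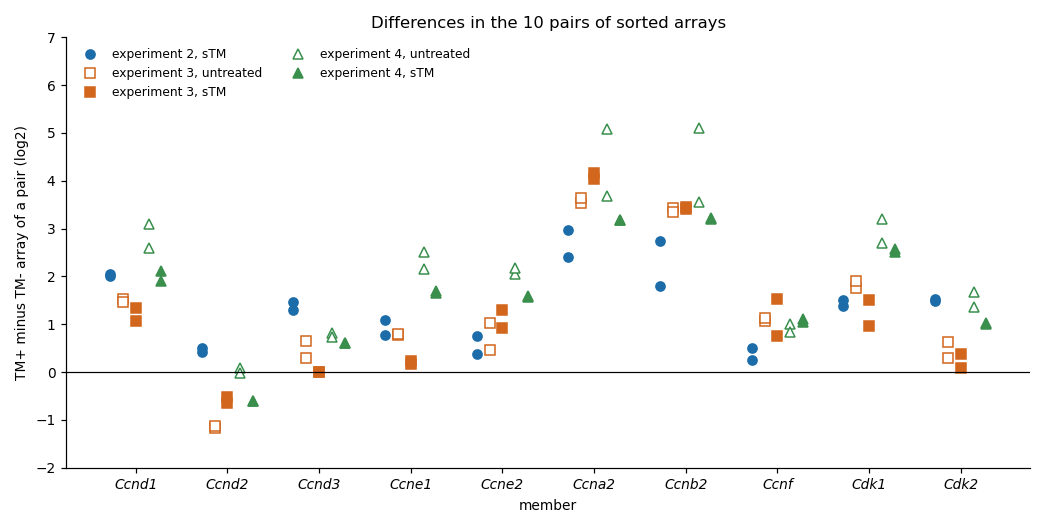
Difference between the TM+ and the TM- array of each of the 10 pairs (vertical axis, log2) for each member; colour and shape mark the experiment, and open points are untreated cultures. Ccnd2 lies above 0 in experiment 2 and below 0 in experiment 3, whereas the other 9 members lie above 0 in 10 of 10 pairs. The share of all genes that do so was not counted.

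Within the same fit of all 20 sorted arrays, untreated cultures gave 8 members called higher in TM+ DCs and 0 called lower, where 13.2% of all genes were called higher and 7.93% lower. The 2 members not called were Ccnd2 (-0.56, SE 0.23, adjusted p = 0.0934) and Ccnd3 (0.62, SE 0.24, adjusted p = 0.0761). All 10 members had an unadjusted limma p under 0.05. In sTM-treated cultures 9 members were called higher and 0 lower, where 11.6% of all genes were called higher and 12.4% lower. There Ccnd2 was at -0.24 (SE 0.19, adjusted p = 0.342), and 9 members had an unadjusted limma p under 0.05. Ccnd3 (0.67, SE 0.20, adjusted p = 0.0191) was not called there without either of the TM- arrays of experiment 2, at limma adjusted p of 0.0559 and 0.0521. It was also not called without experiment 2 (0.31, adjusted p = 0.167), without experiment 4 (0.69, adjusted p = 0.134), with no experiment term (adjusted p = 0.162) or with the culture as a random block (adjusted p = 0.0573). In untreated cultures it was called when either of 2 TM- arrays of sTM-treated cultures was left out (second array of experiment 2 or of experiment 3, adjusted p = 0.0443 and 0.0436), and Ccnd2 was called without the second TM+ array of experiment 4 in untreated cultures (-0.71, adjusted p = 0.0489).

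The interaction of sorting and sTM, which is the difference between the fractions in treated cultures minus that in untreated cultures, lay below 0 for 8 members and above 0 for 2. Of the 10 members 0 were called for the interaction by limma, with 0 at an unadjusted p under 0.05, and 0.01% of all genes were called. The largest interactions were -0.89 for Ccnb2 (95% interval -1.98 to 0.20), -0.66 for Ccna2 (95% interval -1.60 to 0.29) and -0.65 for Cdk1 (95% interval -1.46 to 0.15). These intervals include 0 and also include differences of more than 1 log2 unit. Experiment 2 had sorted arrays of treated cultures only, so it enters the treated side without an untreated match. In experiment 3 the mean difference between fractions was 4.10 in treated and 3.59 in untreated cultures for Ccna2, and 3.42 and 3.39 for Ccnb2. In experiment 4 it was 3.18 and 4.37 for Ccna2, and 3.21 and 4.32 for Ccnb2. For Cdk1 it was smaller in treated cultures of both experiments, at 1.23 against 1.83 and 2.53 against 2.95.

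Centring each array on its 75th percentile in place of the deposited scale moved the median difference of all genes from -0.08 to -0.20, with 14.8% called higher and 45.3% lower. All 10 members kept their direction and their call under it, with log2 differences of 3.54 for Ccna2, 0.53 for Ccnd3 and -0.51 for Ccnd2.

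The rest of the cell cycle engine was read from lists of related genes, to be set against 18.6% higher and 18.7% lower among all genes. These lists were likewise chosen with earlier results of these data known, so their counts here and below are descriptions. Of 8 measured phosphatases, kinases and docking subunits that act on cyclin-dependent kinases, 7 were higher in TM+ DCs and 0 lower, with a median of 1.09. Cks1b, a small docking subunit of these kinases, had a log2 difference of 2.38, and Cdc25c, the phosphatase that activates Cdk1, one of 1.55. Of 20 factors of the E2F and G2/M programmes, 12 were higher and 2 lower (median 0.36). They included Foxm1 (2.10), which drives genes of mitosis, and E2f8 (1.18), a repressor of the E2F family, among the higher ones, and E2f5 (-1.10) and Lin37 (-0.29) among the lower ones.

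Of 22 genes of the ubiquitin ligases that destroy cyclins, 8 were higher and 2 lower (median 0.13). The largest rises were those of Fbxo5 (2.10), an inhibitor of the anaphase-promoting complex, and Ube2c (2.08), its ubiquitin-conjugating enzyme. The falls were those of Anapc7 (-0.58), a subunit of that complex, and Ambra1 (-0.28), which directs the destruction of D type cyclins. Of 10 measured inhibitors and pocket proteins, 4 were higher and 2 lower (median -0.11). Cdkn3 (1.98), a phosphatase that inactivates cyclin-dependent kinases, and Rbl1 (1.42), the pocket protein p107, rose, while Cdkn2b (-0.62) and Cdkn1b (-0.42), the inhibitors p15 and p27, fell. The inhibitors Cdkn2c (1.33) and Cdkn2d (0.56) rose, so the inhibitors did not move in a common direction.

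Other cyclins and cyclin-dependent kinases were called in both directions, and so were all genes (18.6% higher and 18.7% lower). Of 15 other cyclins, 2 were higher and 4 lower (median -0.07), and of 16 other cyclin-dependent kinases, 5 were higher and 4 lower (median 0.09). Ccnh (1.27), the partner of Cdk7, and Ccnc (1.02), the partner of Cdk8, rose, and Ccng2 (-0.71) and Ccnl1 (-0.41) fell. The 2 partners of the D type cyclins moved apart, with Cdk4 at 0.67 (adjusted p = 6.04e-07) and Cdk6 at -0.49 (adjusted p = 8.43e-05), and Cdk14 (0.54) and Cdk20 (-0.34) were the other named rise and fall. Of 18 genes of mitogen and GM-CSF signals, 2 were higher and 8 lower (median -0.20). Myc (2.29) and Csf2ra (0.46), the GM-CSF receptor alpha chain, rose, and Stat5a (-1.48) and Socs3 (-1.37), a signal transducer and an inhibitor of cytokine signals, fell.

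Thbd, the gene of TM itself, was at 5.76 to 6.92 in the 4 TM+ arrays and at 5.65 to 6.06 in the 4 TM- arrays of untreated cultures. Its difference between the fractions over both treatments did not pass the limma test (0.24, SE 0.12, adjusted p = 0.12). It was 0.42 in untreated (adjusted p = 0.126) and 0.06 in sTM-treated cultures (adjusted p = 0.78). Array medians over all genes were 6.88 to 7.15, so this transcript was measured at low intensity. The paper lists TM as higher by qPCR and as protein. Markers of several cell types were called between the fractions, whereas no lymphocyte or erythroid marker was. Over all genes 18.6% were called higher in TM+ DCs and 18.7% lower. Of 9 conventional DC markers 7 were higher in TM+ DCs and 1 lower, of 8 monocyte and macrophage markers 5 and 1, of 11 neutrophil markers 8 and 2, of 9 markers of early granulocyte and monocyte progenitors 5 and 1, of 9 markers of mast cells, basophils and eosinophils 2 and 0, and of 8 lymphocyte and 3 erythroid markers 0. The summed intensity of the DC markers was 18740 to 25282 in TM+ and 14238 to 15708 in TM- arrays of untreated cultures, and 17123 to 21241 against 12376 to 17691 in treated ones. That of the monocyte and macrophage markers was 24659 to 25854 against 25046 to 27934 in untreated cultures and 24772 to 31454 against 18796 to 27014 in treated ones. That of the mast cell, basophil and eosinophil markers was 2685 to 3901 against 1624 to 2678 in untreated cultures and 1651 to 3330 against 711 to 2843 in treated ones. The summed intensity of the progenitor markers was 2097 to 5272 in TM+ and 1637 to 1750 in TM- arrays of untreated cultures, and 1284 to 3654 against 990 to 2772 in treated ones. That of the neutrophil markers was 20106 to 30990 in TM+ and 25176 to 29499 in TM- arrays of untreated cultures, and 21834 to 29709 against 19375 to 29055 in treated ones. Sums add linear intensities, so bright genes weigh most. In untreated TM- DCs the brightest neutrophil markers were Lcn2, Mmp8 and Mmp9, with TM+ minus TM- differences of -0.81, 0.10 and -1.84. The 8 higher ones included Cxcr2 (2.48), Ngp (2.175) and S100a9 (2.16). The sums therefore do not show how much of a cell type each fraction held. The lymphocyte sums lay between 346 and 578 and the erythroid sums between 169 and 255 over all 20 arrays. The part of these markers in the differences of the cyclins was not tested.

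Treatment with sTM gave no call among the members in sorted DCs. In TM+ DCs 0 of 10 members were called by limma (2 at an unadjusted p under 0.05), where 0.853% of all genes were called. In TM- DCs 0 were called (1 at an unadjusted p under 0.05), with 0% of all genes. Averaged over both fractions 0 were called (2 at an unadjusted p under 0.05), with 0.015% of all genes. The averaged differences lay between -0.53 and 0.43, and their median was -0.01. The lists of related genes gave 0 calls for sTM as well, averaged over both fractions and in unsorted DCs.

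In unsorted DCs 0 of 10 members were called for sTM by limma (2 at an unadjusted p under 0.05), with 0% of all genes. The differences lay between -0.45 and 0.64, with a median of 0.31 against 0.01 for all genes. The 2 members at an unadjusted p under 0.05 were Ccnf and Ccnd2, in unsorted DCs and in the average of sorted DCs, and their direction differed between unsorted and sorted DCs.

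Cyclin F was lower with sTM in sorted DCs and higher with sTM in unsorted DCs. In unsorted DCs the untreated arrays of experiment 1 were at 7.70, 7.92, 7.63 and 7.30 and the treated ones at 8.68, 8.63, 7.95 and 8.07. In experiment 2 the untreated arrays were at 7.06 and 6.50 and the treated ones at 7.75 and 7.31, and in experiment 3 they were at 7.32 and 7.46 against 7.67 and 7.76. The treated arrays were above the untreated ones in each of the 3 experiments, with differences of 0.70, 0.75 and 0.33. The share of all genes apart in this way was not counted. In TM+ DCs the difference was -0.26 in experiment 3 and -0.64 in experiment 4, and in TM- DCs it was -0.30 and -0.79. The treated arrays were below the untreated ones in all of these except in TM- DCs of experiment 3, where 1 treated array was above both.

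With all 36 arrays in 1 limma fit, a comparison that was chosen after these values had been seen, the sTM difference of Ccnf in unsorted DCs exceeded that in sorted DCs by 1.09 (SE 0.20, adjusted p = 0.0242). It was 1 of 10 genes called among 19938, or 0.0502%. It was called in each of the 36 fits without 1 array, with adjusted p up to 0.0482. Without experiment 1 the difference was 1.01 (adjusted p = 0.135) and without experiment 4 it was 0.84 (adjusted p = 0.0818). Unsorted and sorted DCs share experiments 2 and 3 only, and untreated arrays of both only experiment 3, where the direction of the means was also opposite. In TM- DCs of experiment 3, however, the fall came from 1 treated array at 6.47. The other treated array, at 7.35, was above both untreated ones.

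Cyclin D2 had the reverse pattern. In unsorted DCs the untreated arrays were at 12.75, 12.78, 12.47 and 12.36 in experiment 1, and the treated ones at 12.22, 12.08, 12.14 and 12.30. They were at 11.95 and 12.11 against 11.22 and 11.35 in experiment 2, and at 12.17 and 12.14 against 11.85 and 11.93 in experiment 3. The treated arrays were below the untreated ones in each experiment, with differences of -0.40, -0.74 and -0.26, and here too the share of all genes was not counted. In sorted DCs the difference was 1.03 in TM+ and 0.47 in TM- DCs of experiment 3, and -0.20 and 0.43 in those of experiment 4. The sTM difference in unsorted DCs was lower than that in sorted DCs by a log2 value of -0.90 (SE 0.20, adjusted p = 0.0631), which did not pass the test with all 36 arrays. It passed in 4 of the 36 fits without 1 array, namely the fourth treated unsorted array of experiment 1 (adjusted p = 0.0270), the first untreated TM+ array of experiment 4 (0.0494) and either treated TM+ array of experiment 4 (0.0283 and 0.0240). It also passed without arrays 3 and 4 of experiment 1 (-0.98, adjusted p = 0.0184) and without experiment 4 (-1.15, adjusted p = 0.00103).

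**Figure D4:**
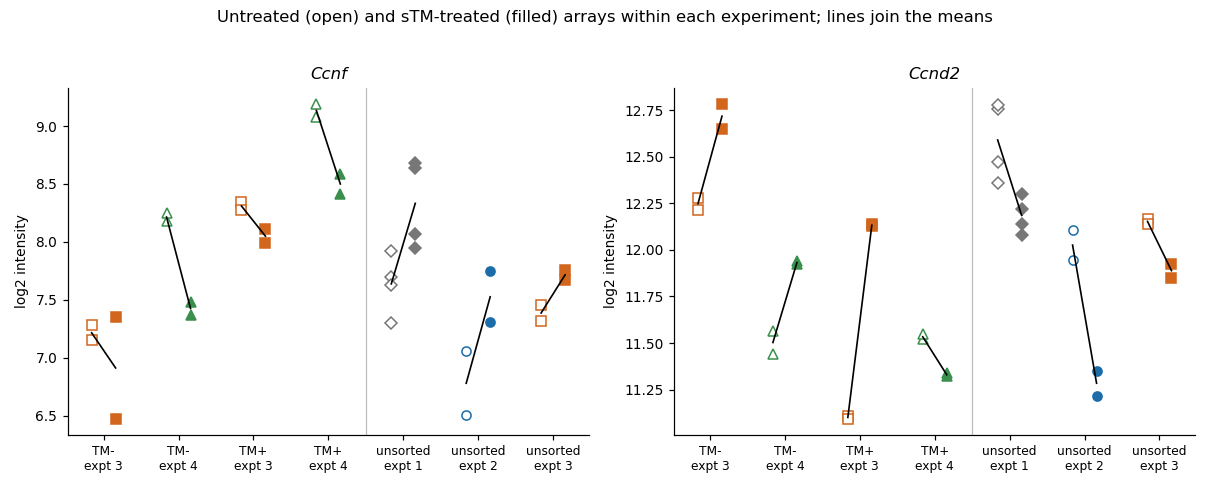
Log2 intensity (vertical axis) of Ccnf and Ccnd2 in untreated (open) and sTM-treated (filled) arrays within each experiment, in TM-, TM+ and unsorted DCs; lines join the means. For Ccnf the lines fall in the 4 sorted comparisons and rise in the 3 unsorted ones.

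For Ccnd1 the sTM difference in TM+ DCs turned with the experiment. It was 0.52 in experiment 3 and -1.03 in experiment 4, with the 2 treated arrays apart from the 2 untreated ones in both. Other members, such as Ccna2 and Cdk1, were also apart in TM+ DCs of both experiments, and the share of all genes was not counted. The fitted difference of Ccnd1 over experiments was -0.24 (SE 0.29, adjusted p = 0.917). Without experiment 3 it was -1.07 (adjusted p = 0.00587) and without experiment 4 it was 0.65 (adjusted p = 0.245). Without the first untreated TM+ array of experiment 4 it was 0.03.

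Unsorted DCs of experiment 1 also differed by array number. Numbers 1 and 2 stood apart from numbers 3 and 4 in both treatments, and the lowest correlation over all genes between arrays of 1 group and experiment was 0.940 there, against 0.982 elsewhere. The labels give these arrays no other difference than their number. Ccna2 was at 8.74 and 8.64 in untreated arrays 1 and 2 and at 5.92 and 5.85 in arrays 3 and 4, and at 10.13 and 9.65 against 5.87 and 6.25 in treated ones. The mean difference between the pairs of numbers was 3.32 for Ccna2, 2.59 for Ccnb2, 1.79 for Cdk1, 1.30 for Ccnd1, 1.29 for Ccne1, 1.14 for Cdk2 and 1.14 for Ccne2. It was 0.50 for Ccnf, 0.46 for Ccnd3 and 0.14 for Ccnd2. The members with the largest differences between the sorted fractions, Ccna2 and Ccnb2, also had the largest ones here, and Ccnd2 had the smallest.

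Marker sums moved with these array numbers. The summed intensity of the monocyte and macrophage markers was 29583 to 33759 in arrays 1 and 2 and 25087 to 26695 in arrays 3 and 4, and that of the neutrophil markers was 24476 to 27285 against 16234 to 17336. That of the mast cell, basophil and eosinophil markers was 2264 to 3114 against 1077 to 1212, that of the DC markers 17359 to 19978 against 15819 to 17039, and that of the progenitor markers 1409 to 2151 against 1183 to 1280. The lymphocyte sums were 349 to 430 against 426 to 467 and the erythroid sums 174 to 225 against 233 to 271. Their part in the differences was not tested. Between treatments, Ccna2 was higher with sTM by 1.20 in arrays 1 and 2 and by 0.17 in arrays 3 and 4, and Cdk1 was higher by 0.81 in the first and differed by -0.28 in the second. Ccnf was higher with sTM in both, by 0.85 and 0.54, and Ccnd2 was lower in both, by log2 values of -0.61 and -0.20. When arrays 3 and 4 of experiment 1 were left out, Ccnf (0.64, adjusted p = 0.0445) and Ccnd2 (-0.54, adjusted p = 0.0277) were called for sTM in unsorted DCs, and without arrays 1 and 2 neither was.

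**Figure D5:**
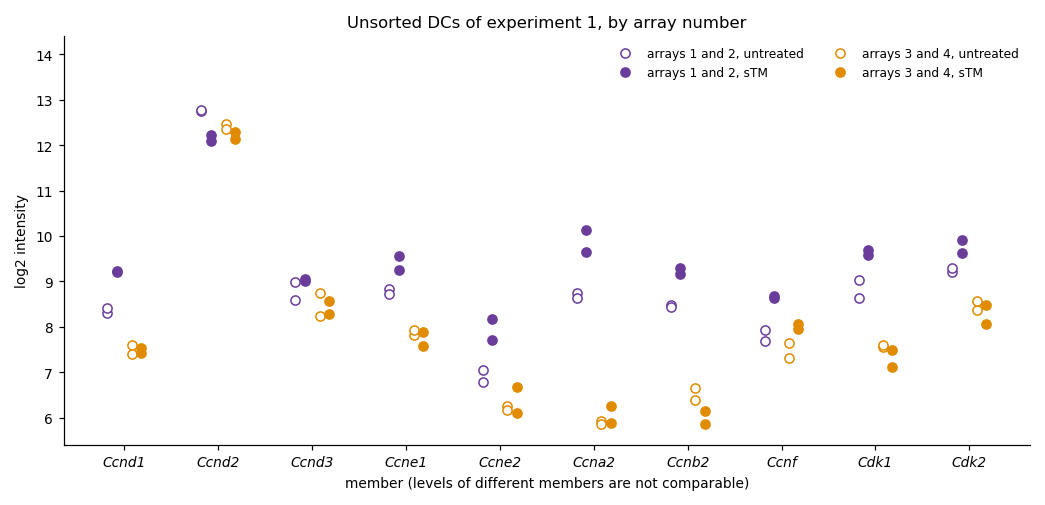
Log2 intensity (vertical axis) of the 10 members in the 8 unsorted arrays of experiment 1; colour marks the array numbers, and filled points are sTM-treated. Ccna2 is at 8.64 to 10.13 in arrays 1 and 2 and at 5.85 to 6.25 in arrays 3 and 4, whereas the 2 sets overlap for Ccnd2.

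In experiments 2 and 3 unsorted DCs could be set beside the sorted fractions of the same experiment and treatment. Nearness below is that of log2 means. RNA of mixed cells adds on the linear scale, where the nearer fraction can differ, so nearness does not give the share of either fraction. In untreated cultures of experiment 3 the mean of unsorted DCs lay between those of the fractions for 10 of 10 members and was nearer to TM- DCs for 10 of 10. Ccna2 was at 7.01 in TM-, 7.71 in unsorted and 10.59 in TM+ DCs there. In sTM-treated cultures of experiment 2 it lay between for 8 and below both for 2 (Ccnd2 and Ccne1), and was nearer to TM- DCs for 9. In sTM-treated cultures of experiment 3 it lay between for 5, and Ccna2 was at 6.30, 8.79 and 10.40, nearer to TM+ DCs on the log2 scale. The other 5, which were Ccnd2, Ccnd3, Ccne1, Ccne2 and Cdk2, were lower in unsorted DCs than in both fractions.

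The genes whose means ran closest to each member over the 16 combinations of experiment, fraction and treatment are given as a description, since the means share arrays and experiments. Ccna2 ran closest to Ccnb2 (Pearson r = 0.984), then to Cenpn and Cdca3 (0.975 each), and Ccnb2 to Prr11, Knstrn and H2ac15 (0.992, 0.989 and 0.987). Cdk1 ran closest to Cks1b (0.988), Cenpm and Aurkb (0.987 each), of which Aurkb is a kinase of mitosis. Ccnd1 ran closest to Rrm2 (0.963), a subunit of ribonucleotide reductase, Mcm5 (0.961), a subunit of the replicative helicase, and Incenp (0.959). Ccne2 ran closest to H2ac4, Cenpu (0.953 each) and Orc6 (0.943), Ccne1 to Sting1 (0.95), Zfp39 (0.943) and Dtl (0.941), and Cdk2 to Gstcd (0.959), Fgr (0.955) and Mcm6 (0.945). Ccnf ran closest to Pimreg (0.907), Eme1 (0.898) and Cd63 (0.894), and Ccnd3 to Snap29 (0.985), Myadm (0.979) and Sipa1 (0.974). Ccnd2 ran closest to Slfn5 (0.903), Adar (0.888), an RNA-editing enzyme, and Rnf213 (0.882), and its r with the other 9 members lay between -0.53 and -0.03.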

How the data were processed

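RNA of the 36 samples was hybridised by the authors to Affymetrix Mouse Gene 1.0 ST arrays. The deposited values are intensities per transcript cluster on a linear scale, which the authors made with RMA (background correction, normalization and summarization). The sources do not say if RMA was run on all arrays at once. RMA would hide a shift shared by all transcripts, and detection calls were not used. Levels of different probe sets were not compared, except that the marker sums add them.

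Of 35556 clusters, 21789 had exactly 1 symbol, and 999 symbols had more than 1 such cluster. The cluster with the highest mean stood for each of 19938 symbols, of which 19856 matched RefSeq. Log2 values were fitted with limma 3.58.1 (R 4.3.3, statmod 1.5.0): sorting, treatment and their interaction for the 20 sorted arrays, treatment for the 16 unsorted arrays, and experiment as a random block. P-values were Benjamini-Hochberg adjusted over all symbols and called under 0.05. The fits were tested on simulated data. Descriptions and plots used Python 3.11.15, numpy 2.4.6, pandas 2.3.3 and matplotlib 3.10.9.

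Groups came from the labels. The members and gene lists were chosen with earlier results of these data known. Named genes were the 10 members, the 2 largest called rises and falls of each list, Thbd, and the 3 genes with means most like each member's. Cdkn2c, Cdkn2d and some neutrophil markers were named in addition. Ccnd2 and Ccnf in the fit of all 36 arrays were chosen after their values were seen. Alternatives were the handling of experiment and array number, dim genes (below the 25th percentile), all clusters, 2 other scalings (among them centring on the 75th percentile), variance trend, array weights, and leaving out arrays or experiments. Ccnb1, Cdkn1a and some genes of the marker lists were not analysed here.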

Additional observations from a re-analysis of the deposited data

Results flagged for a closer look

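In TM- DCs of sTM-treated cultures, the first array of experiment 3 lay far below the other 5 for Ccnf. It was at 6.47, the nearest array was at 7.14 and the highest at 7.48, so that the gap was 0.66 of the range, above the critical value of 0.625 for 6 arrays. It was 1 of 60 groups of member values tested in this way, and chance flags about 1 in 20 groups. The other treated TM- array of experiment 3 was at 7.35.

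The sTM difference of Ccnf in unsorted DCs exceeded that in sorted DCs by 1.09 (limma, 36 arrays, adjusted p = 0.0242). The comparison was chosen after these values had been seen, so its p-value is not independent of them. It was not called by limma without experiment 1 (adjusted p = 0.135) or without experiment 4 (adjusted p = 0.0818). In unsorted DCs the treated mean was higher in 3 of 3 experiments, and in sorted DCs it was lower in both experiments of both fractions. In TM- DCs of experiment 3 the lower mean rested on the outlying array described above.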

How the results depend on the processing

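The sort calls of Ccna2, Ccnb2, Ccnd1, Ccne1, Ccne2, Ccnf, Cdk1 and Cdk2 held in each of the 33 alternatives run, and that of Ccnd2 was lost in 17 of 33, among them both fits with a replicate block (adjusted p = 0.0555 and 0.0661). That of Ccnd3 was lost with no experiment term (adjusted p = 0.0617) and without experiment 4. The number of members called ranged from 8 to 10, in untreated cultures from 6 to 10 and in treated ones from 7 to 10. Without experiment 3, the difference of Ccnd2 turned to 0.030 in untreated cultures. Without experiment 4, Ccne1, Ccne2 and Cdk2 were not called in untreated cultures (adjusted p = 0.0794, 0.0895 and 0.662), nor was Ccne1 in treated ones (0.57, adjusted p = 0.0543). Ccnd3 in untreated cultures was called in 8 of 33 alternatives, among them experiment as a fixed factor (adjusted p = 0.0205) and the replicate block with culture as a fixed factor (adjusted p = 0.0427), and Ccnd2 there in 4 of 33. Ccnd2 in treated cultures was called with array weights (-0.38, adjusted p = 0.0442).

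For sTM, array weights gave 2 members called in TM+ DCs, 1 in TM- DCs and 3 averaged over fractions. Without experiment 3 there were 2 in TM+ DCs and 2 averaged, and without experiment 4 there was 1 in TM+ DCs. In unsorted DCs the replicate block with culture as a fixed factor gave 1 (Ccnf, 0.62, adjusted p = 0.0209), and leaving out arrays 3 and 4 of experiment 1, chosen after seeing the data, gave 2. Ccnd1 in TM+ DCs turned to 0.23 with array weights, 0.65 without experiment 4 and lay between -0.50 and 0.031 when single arrays were left out, the value above 0 being that without the first untreated TM+ array of experiment 4. The fit of all 36 arrays was also chosen after seeing the data, and its Ccnf difference was 1.01 without experiment 1 and 0.84 without experiment 4. The cause of these changes was not tested.

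No test in the text above uses array numbers as pairs except the replicate block, and the matched TM+ and TM- arrays are a description. Outside experiment 1, deviations of same-numbered arrays correlated above 0.1 in 5 of 11 cases (-0.249 to 0.403). In experiment 1 those of the 4 untreated and treated unsorted arrays correlated at 0.564 to 0.746, but 2 of the 4 correlated best with their own number, and in experiment 2 the value was 0.026. Of 1233 values for single members, 1172 kept direction and call. Each member has 1 cluster, so another cluster could not be tried.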
